A study of Mus musculus with 6 samples.

Results

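The receptors described here are those through which catecholamines and natriuretic peptides reach the fat cell: the adrenergic receptor genes Adrb1, Adrb3, Adra1a, Adra1b and Adra2a and the natriuretic peptide receptor genes Npr1, Npr2 and Npr3. Members were all array probe sets annotated to exactly 1 of these 8 gene symbols. Of the 8 genes, 4 had such a probe set in the annotation used, namely Adra1b, Npr1, Npr2 and Npr3, and they were covered by 6 of the 22690 probe sets. Adrb1, Adrb3, Adra1a and Adra2a were not analysed here. RNA of epididymal white adipose tissue (WAT) was taken at ZT18, the middle of the dark phase, from young adult male C57BL/6 mice. The control group (3 arrays) slept undisturbed, and the timed sleep restriction (TSR) group (3 arrays) was kept awake by gentle handling for 6 h per day on 5 consecutive days and was sampled on the last of them. No allele, diet or drug distinguished the groups. The sources used here do not say whether an array held 1 animal or a pool, so that every p-value rests on the spread among arrays, which may be technical.

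Adrenergic receptors couple the sympathetic transmitter noradrenaline to G proteins: beta receptors raise cyclic AMP and start lipolysis, alpha2 receptors lower cyclic AMP, and alpha1 receptors act through Gq and phospholipase C. Npr1 and Npr2 are membrane guanylyl cyclases that answer to atrial and B-type peptide and to C-type peptide, respectively, and their product cyclic GMP also activates lipolysis through its own kinase. Npr3, the clearance receptor, lacks the cyclase and removes all these peptides from the circulation and tissue. The amount of Npr3 relative to Npr1 is known as a setting of how strongly fat responds to natriuretic peptides.

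The labelled tissue carried its defining markers. All 8 measured adipocyte markers were tested, and the fatty acid binding protein gene Fabp4 was the brightest, with a control mean of 22601 ± 2006 and a TSR mean of 16823 ± 1405 (SD, n = 3 each). Of the 8 adipocyte markers 4 rose and 4 fell. TSR also moved markers of other cells. Of 13 measured hepatocyte (liver cell) markers other than Cyp2e1, all 13 had TSR signals entirely above the control range, and their summed signal was 398 to 493 in control and 12662 to 13159 after TSR. In control, 4 of the 13 stayed under the 25th percentile on all arrays, whereas after TSR this was true of 0. Cyp2e1, the brightest of that list and also expressed in fat, fell (log2 fold change -0.42). Of 7 macrophage markers 6 fell, and of 9 tested smooth muscle and pericyte markers 5 fell and 1 rose. Of 10 endothelial markers 3 rose and 4 fell, and of 8 progenitor and fibroblast markers 1 rose and 5 fell. Of 4 mesothelial markers 1 rose and 2 fell. Of 4 tested brown adipocyte markers 2 rose, Dio2 and Elovl3, with low control means of 27.2 and 23.7. These means lay under the filter on low signals (43.8), so that both genes were tested only through their TSR signals. Over all tested probe sets 25.6% were called higher and 21.0% lower, and 31.4% had TSR signals entirely above control. In bulk tissue, fewer cells of a type and less RNA per cell cannot be told apart. The median log2 signal of all probe sets was 0.11 higher on the TSR arrays.

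The promoter sequences of the pair of receptor genes that changed are shown first, because Npr3 and Npr2 moved in the same direction. The 150 bases before the annotated start are given 5′ to 3′ from RefSeq (build GRCm38.p6), for Npr3 at chr15:11907372-11907521 on the minus strand and for Npr2 at chr4:43631785-43631934 on the plus strand. For both genes RefSeq also holds models that reach further upstream. Capitals mark any match to TGACG (the core of the cyclic AMP response element, TGACGTCA, with which it overlaps), AGGTCA (a nuclear receptor motif) or CACGTG (the E-box bound by clock factors), on either strand.
Npr3: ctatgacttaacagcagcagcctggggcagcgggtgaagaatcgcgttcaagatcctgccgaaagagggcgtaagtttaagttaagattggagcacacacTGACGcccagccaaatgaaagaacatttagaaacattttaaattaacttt
Npr2: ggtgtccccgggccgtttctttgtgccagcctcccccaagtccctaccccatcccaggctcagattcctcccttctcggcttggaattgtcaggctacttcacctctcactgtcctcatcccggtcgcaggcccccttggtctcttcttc
Npr3 held 1 TGACG and neither of the other motifs, and Npr2 held none of the 3. TGACG occurs in 13.3% of all 32851 RefSeq promoter windows of this length, AGGTCA in 8.58% and CACGTG in 4.30%. The windows also differed in base composition, with 44.0% G and C in Npr3 and 60.7% in Npr2.

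Npr3, the clearance receptor, was higher after TSR by all 3 of its probe sets. The deposited values are MAS5 signals in arbitrary units on a linear scale. The probe set with the highest signal, 1435184_at, read 4122, 4159 and 4066 in the control samples and 5289, 5349 and 5067 in the TSR samples. All TSR signals exceeded all control signals, and the group means were 4116 ± 46.8 (SD, n = 3) and 5235 ± 148 (SD, n = 3). Its log2 fold change, the difference of mean log2 signals between TSR and control, was 0.35 (standard error 0.04, 95% interval 0.25 to 0.44, adjusted p = 0.000223 from limma). This corresponds to a ratio of mean signals of 1.27.

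The other Npr3 probe sets changed by more. Probe set 1448024_at read 374, 383 and 359 in control and 694, 722 and 758 after TSR, again without overlap. The means were 372 ± 12.3 and 725 ± 32.1 (SD, n = 3 each), a ratio of 1.95 and a log2 fold change of 0.96 (standard error 0.06, adjusted p = 4.71e-06 from limma). The 95% interval, 0.83 to 1.10, did not reach that of 1435184_at. Probe set 1450286_at was tightly grouped in control, at 247, 246 and 247, and read 503, 525 and 493 after TSR. It rose from 247 ± 0.314 (SD, n = 3) to 507 ± 16.5 (SD, n = 3), a ratio of 2.06 and a log2 fold change of 1.04 (standard error 0.06, 95% interval 0.90 to 1.18, adjusted p = 3.89e-06 from limma). No single TSR sample led all 3 probe sets: TSR replicate 3 was the lowest of its group by 1435184_at and 1450286_at and the highest by 1448024_at. Leaving out any array kept the log2 fold changes at 0.33 to 0.37 for 1435184_at, 0.93 to 0.99 for 1448024_at and 1.01 to 1.06 for 1450286_at.

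**Figure D1:**
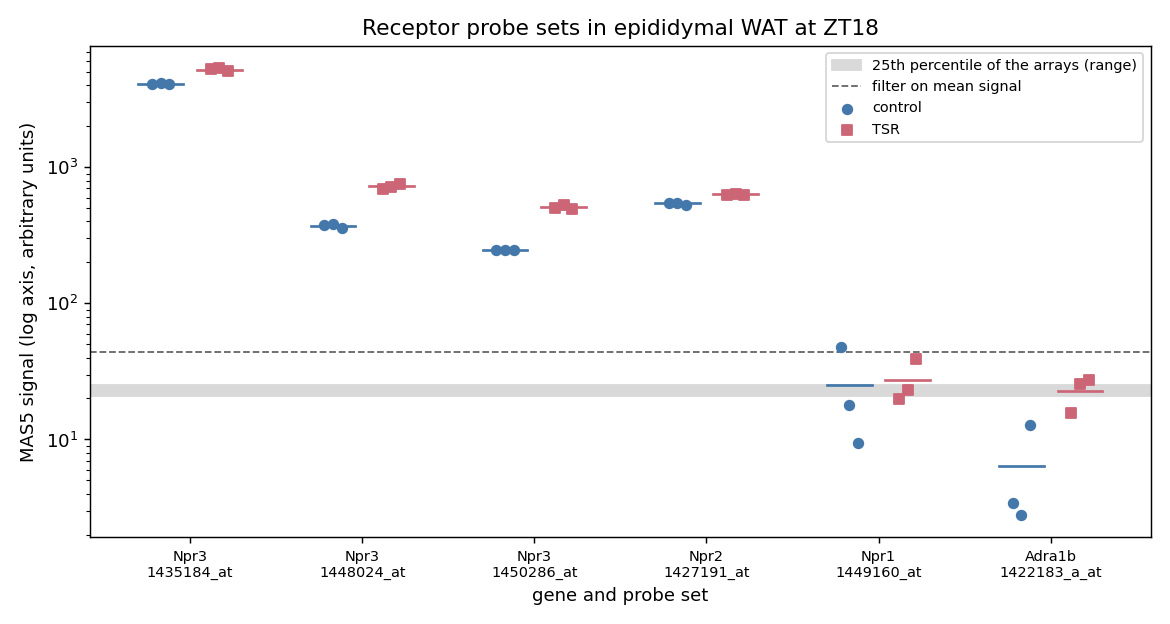
MAS5 signal (log axis, arbitrary units) of the 6 receptor probe sets for the 3 arrays of each group (blue circles, control; red squares, TSR). Lines are group means, and the grey band and the dashed line show the range of the arrays' 25th percentiles and the filter on mean signal. All 3 Npr3 probe sets and that of Npr2 lie far above the dashed line and are higher in every TSR sample, whereas all signals of Npr1 and Adra1b except 1 control signal of Npr1 (47.5) lie below it.

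The size of the Npr3 change therefore depended on the probe set. Within an array, the log2 signal of 1448024_at minus that of 1435184_at averaged -3.47 ± 0.03 in control and -2.85 ± 0.10 after TSR (SD, n = 3 each), a difference of 0.62. For 1450286_at minus 1435184_at the values were -4.06 ± 0.02 and -3.37 ± 0.02, a difference of 0.69. In both pairs the TSR values were all above the control values, which gives an exact permutation p of 0.1 (two-sided), the lowest possible with 3 arrays per group. The pair of dimmer probe sets changed by similar amounts, with a difference of 0.08 between their changes (exact permutation p = 0.3, two-sided). In the same arrays the log2 signal of 5′ minus 3′ control probe sets lay entirely higher after TSR in 12 of 22 pairs, entirely lower in 1 and overlapped in 9. The pairs were not alike. In the r2 series of spiked-in controls the difference was 1.52 for dap, 1.06 for thr, 0.71 for phe and 0.49 for lys, all entirely higher after TSR. For bioB, bioC, bioD and cre of that series it was -0.32, -0.08, -0.03 and 0.02, with overlap. Another bioB pair was entirely higher (0.68), and the entirely lower pair was another of bioC (-0.16). The other dap, thr, phe and lys pairs were entirely higher as well (1.26, 0.67, 0.78 and 0.39). Those of bioD and cre outside the r2 series overlapped (-0.16 and 0.01). For 18S RNA the difference was -0.07. For 2 abundant mouse transcripts it was seen with control and TSR means of -1.22 ± 0.01 and -0.67 ± 0.0013 for beta-actin and of -0.52 ± 0.07 and 0.13 ± 0.05 for Gapdh (SD, n = 3 each). Its part in the spread between the Npr3 probe sets was not tested.

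Npr2, the guanylyl cyclase receptor of C-type natriuretic peptide, rose by less. Its single probe set, 1427191_at, read 546, 551 and 533 in control and 631, 639.5 and 629 after TSR. The groups did not overlap, and the mean went from 543 ± 9.53 (SD, n = 3) to 633 ± 5.52 (SD, n = 3). The log2 fold change was 0.22 (standard error 0.05, 95% interval 0.11 to 0.33, adjusted p = 0.0062 from limma). When every array was centred on its median, the change fell to 0.11 and no longer passed (adjusted p = 0.13 from limma), while Npr3 still passed by each probe set, with 0.24, 0.86 and 0.93. After quantile normalization Npr2 changed by 0.17 (adjusted p = 0.028 from limma) and the brightest Npr3 probe set by 0.44.

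**Figure D2:**
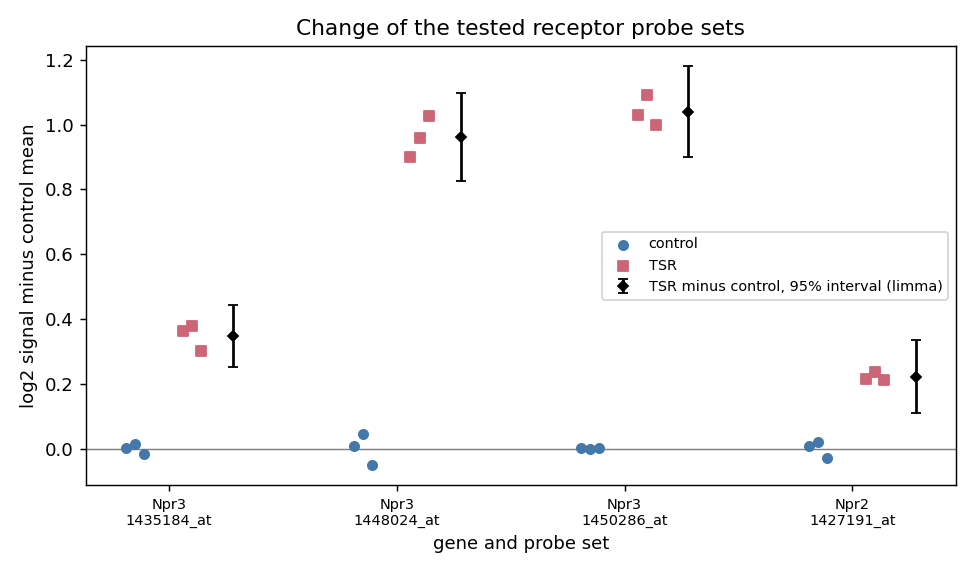
Log2 signal of each sample minus the mean of the control samples for the 4 tested receptor probe sets, with control arrays as circles, TSR arrays as squares, and the difference between groups with its 95% interval from limma (diamonds). The intervals of 1448024_at and 1450286_at of Npr3 overlap each other, and both lie above those of 1435184_at and of Npr2.

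All 4 tested receptor probe sets were thus called higher, in a comparison in which 25.6% of all 14707 tested probe sets were called higher 21.0% lower and 46.6% in either direction. The same 4 did not overlap between groups, as was so for 56.6% of tested probe sets (31.4% with TSR above control). As 3 of the 4 measure one gene, the count stands for 2 genes. Hepatocyte and macrophage markers moved in the same arrays, as given above, and their part in the receptor changes was not tested.

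Npr1 and Adra1b were near background, which here means a mean log2 signal among the lowest 35% of probe sets (below 5.45), and were left out of the main test. Npr1, the receptor of atrial and B-type natriuretic peptide, read 47.5, 18.0 and 9.46 in control and 19.8, 23.3 and 39.0 after TSR (1449160_at). The groups overlapped, and 3 of the 6 signals, 2 in control and 1 after TSR, did not reach their array's 25th percentile (20.9 to 25.3). Tested without the filter, the log2 difference was 0.39 with a 95% interval of -1.04 to 1.81 (adjusted p = 0.70 from limma), which leaves room for a change in either direction. A ratio of Npr3 to Npr1 was not computed, since signals of different probe sets are not comparable.

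Adra1b, a Gq-coupled alpha1 receptor also known from liver, read 3.41, 2.79 and 12.8 in control and 15.6, 25.6 and 27.4 after TSR (1422183_a_at). Every TSR sample was above every control sample, but 4 of the 6 signals fell short of their array's 25th percentile, among them those of every control array. No fold is given, since the mean log2 signal of the TSR samples did not exceed that percentile on the control arrays. Without the filter the difference passed (adjusted p = 0.044 from limma), as did higher signals in 16.0% of the 22626 probe sets then tested. With signals raised to the 25th percentile of their array, the log2 difference was 0.21. The hepatocyte marker Alb had means of 129 ± 31.6 in control and 3205 ± 143 in TSR samples (SD, n = 3 each), and its part in the Adra1b signal was not tested. Adra2c, the other alpha-adrenergic receptor gene with a probe set here, was near background as well, at 7.93 ± 0.827 and 11.8 ± 10.8.

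**Figure D3:**
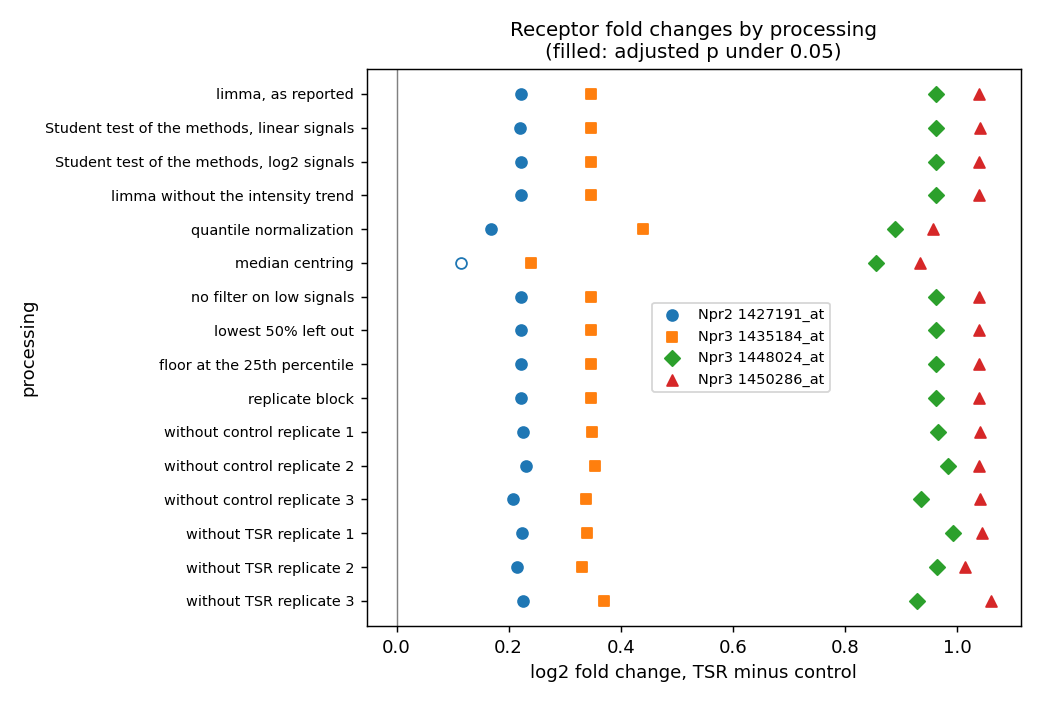
Log2 fold change (TSR minus control) of the 4 tested receptor probe sets under the reported processing and each alternative, filled where the adjusted p was under 0.05. Npr2 is open only after median centring, where its change is 0.11, and the 3 Npr3 probe sets are filled throughout.

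The profiles closest to each receptor over the 6 arrays were found by the root mean square difference of log2 signals, each centred on its own mean. For Npr3 (1435184_at) these were Mfge8 (difference 0.016), Glul (0.018) and Timp4 (0.021), whose log2 fold changes lay between 0.35 and 0.37. For Npr2 they were Polr3k (0.012), Snhg1 (0.014) and Dtx2 (0.016), with log2 fold changes between 0.20 and 0.22. The likeness rests on the difference between groups and on 6 samples.

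The ligands of these receptors gave little signal. The natriuretic peptide genes Nppa (12.2 ± 9.07 in control and 20.1 ± 1.78 after TSR), Nppb (39.4 ± 4.59 and 46.3 ± 22.0) and Nppc (3.20 ± 1.53 and 10.9 ± 6.43) and the processing protease gene Corin were below the filter. Of the peptide-handling genes above it, none of 3 passed the test: the protease genes Furin (log2 fold change 0.06, adjusted p = 0.59), Mme, which encodes neprilysin (-0.03, 0.76), and Ide, the insulin-degrading enzyme gene (-0.06, 0.32), all from limma. On the noradrenaline side the synthesis enzyme genes Th, Ddc and Dbh were also below the filter. Ddc, which encodes the decarboxylase, read 10.8, 13.6 and 11.1 in control, all under the 25th percentile, and 40.1, 32.9 and 36.1 after TSR, without overlap (adjusted p = 0.0068 from limma without the filter). The sulfotransferase gene Sult1a1 rose from 4318 ± 163 (SD, n = 3) to 6399 ± 293 (SD, n = 3), whereas Maoa, which oxidises noradrenaline, did not pass (0.21, adjusted p = 0.15 from limma), nor did Pnmt (0.24, adjusted p = 0.23 from limma).

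Around the receptors, 112 genes were listed by role, from ligand supply and related receptors to G proteins, second messengers and their targets. Of these, 87 had a probe set and 63 were tested, each by its brightest probe set. Of the 63, 17 rose, 13 fell and 33 did not pass, with a median log2 fold change of 0.01. Dio2 and Plcb4, among the 17, had control means under the filter and were tested only through their TSR signals. Among all 8619 tested genes 24.0% rose and 23.0% fell, 47.0% in all, and the median was also 0.01. Probe sets of one gene could differ: in 13 of 28 listed genes with further tested probe sets, at least 1 of those had another call than the brightest, and in 2 (Gnai2 and Tshr) they were called in opposite directions. Values in parentheses are log2 fold changes.

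In the cyclic GMP arm that Npr2 shares with nitric oxide, 2 of 5 tested genes fell and 1 rose. Over all tested genes 23.0% fell and 24.0% rose. Gucy1a1, a subunit of soluble guanylyl cyclase, had means of 124 ± 7.91 in control and 53.7 ± 4.17 in TSR samples (SD, n = 3 each), a log2 fold change of -1.21 (adjusted p = 0.000156 from limma), and its other tested probe set gave -0.34 (adjusted p = 0.22). Mrvi1, a substrate of cyclic GMP-dependent kinase, fell (-0.60). Pde2a, a phosphodiesterase that cyclic GMP activates, rose (0.18, adjusted p = 0.036), and this call was lost under 10 of 16 alternatives. The kinase gene Prkg1 was below the filter. Of the smooth muscle and pericyte markers, 5 of 9 fell and 1 rose in the same arrays, as given above, and their part was not tested.

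The counts in the cyclic AMP arm stand beside 24.0% of all tested genes called higher and 23.0% called lower. In this arm, the stimulatory G protein gene Gnas did not pass (-0.07, adjusted p = 0.24 from limma). The inhibitory Gnai2 fell by its brightest probe set (-0.14) but rose by the other (0.42), and Gnai1 did not pass by its brightest (-0.03) but rose by another (0.52). Gna11 of the Gq family rose by its brightest probe set (0.25), and its other probe set did not pass (0.03, adjusted p = 0.68 from limma). Of 6 tested adenylyl cyclases 2 fell, Adcy7 (-0.59) and Adcy9 (-0.46), while the pair of other Adcy9 probe sets gave -0.08 and 0.01 and did not pass. Of the other Adcy7 probe sets 1 fell as well (-0.55) and 1 did not pass (0.23, adjusted p = 0.375 from limma). Of 4 protein kinase A subunits Prkaca, a catalytic one, rose (0.49), and of 4 cyclic AMP phosphodiesterases Pde8a fell (-0.29). The subunit gene Prkar1a did not pass by its brightest probe set (-0.03) but fell by the other (-0.15, adjusted p = 0.0251 from limma). The receptor kinases Grk6 (0.44) and Grk5 (0.30), which phosphorylate activated receptors, rose, whereas the arrestins Arrb1 (0.02) and Arrb2 (-0.06) did not pass. Of 6 lipolysis genes Lipe, which encodes hormone-sensitive lipase, rose (0.61), as did G0s2, an inhibitor of adipose triglyceride lipase (0.49), and 4 did not pass, among them Pnpla2, the adipose triglyceride lipase gene (0.15), and the monoglyceride lipase gene Mgll (-0.11), whose other probe sets included 1 each that rose (0.44 and 0.46).

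In the Gq arm through which Adra1b signals, 4 of 8 tested genes rose and 1 fell, where 24.0% of all tested genes rose and 23.0% fell. Plcb4, a phospholipase C gene, had means of 30.8 ± 3.29 in control and 63.0 ± 8.86 in TSR samples (SD, n = 3 each), and since its control mean was under the filter (43.8) it was tested only through its TSR signal. Its other probe set was below the filter, and its groups overlapped (0.29). The protein kinase C genes Prkcd (0.29), Prkca (0.50) and Prkce (0.15) were called higher and Prkcb (-0.46) lower. The call was lost under 1 of 16 alternatives for Prkcd, 4 of 15 for Prkca and 12 of 16 for Prkce. After median centring 1 rose and 1 fell, and after quantile normalization 2 rose and 1 fell. Genes known to respond to cyclic AMP did not move together. Dio2, a thyroid hormone deiodinase, rose from 27.2 ± 2.25, a control mean under the filter, to 142 ± 15.7 (SD, n = 3 each). Its other probe sets were below the filter (0.26 and 1.28). Ppargc1a, a coactivator of mitochondrial genes, rose by its brightest probe set (1.04). Its other probe sets gave 0.59, 0.64, 0.83 and 0.14, and the last of these did not pass (adjusted p = 0.35 from limma). Nr4a1 (-0.97), Sik1 (-0.53) and Dusp1 (-0.30) fell, and 3 of 8 did not pass. Among these 3, Rgs2 gave -0.08 by its brightest probe set but rose by the other (0.38, adjusted p = 0.00171 from limma). The call of Sik1 was lost under 8 of 15 alternatives. Ucp1, the uncoupling protein gene of brown fat, lay below the 25th percentile of all 6 arrays.

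Other receptors known to act on cyclic AMP in fat cells changed in both directions in this bulk tissue. Of 7 tested genes 3 rose, namely Tshr (0.55), the prostaglandin receptor gene Ptger3 (0.33) and the succinate receptor gene Sucnr1 (0.17), and 3 fell, namely Ptger4 (-1.14), the niacin receptor gene Hcar2 (-1.02) and Ffar2 (-0.52). Over all tested genes 24.0% rose and 23.0% fell. The other probe set of Tshr fell (-0.46, adjusted p = 0.036 from limma). Npr3 by its dimmer probe sets changed by about as much as Hcar2 and Ptger4 by their brightest, in the opposite direction. By its own brightest probe set, the like measure, Npr3 changed by less (0.35). The difference between these genes was not tested. Of 7 macrophage markers 6 fell in the same arrays, as given above, and their part in the receptors that fell was not tested.

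**Figure D4:**
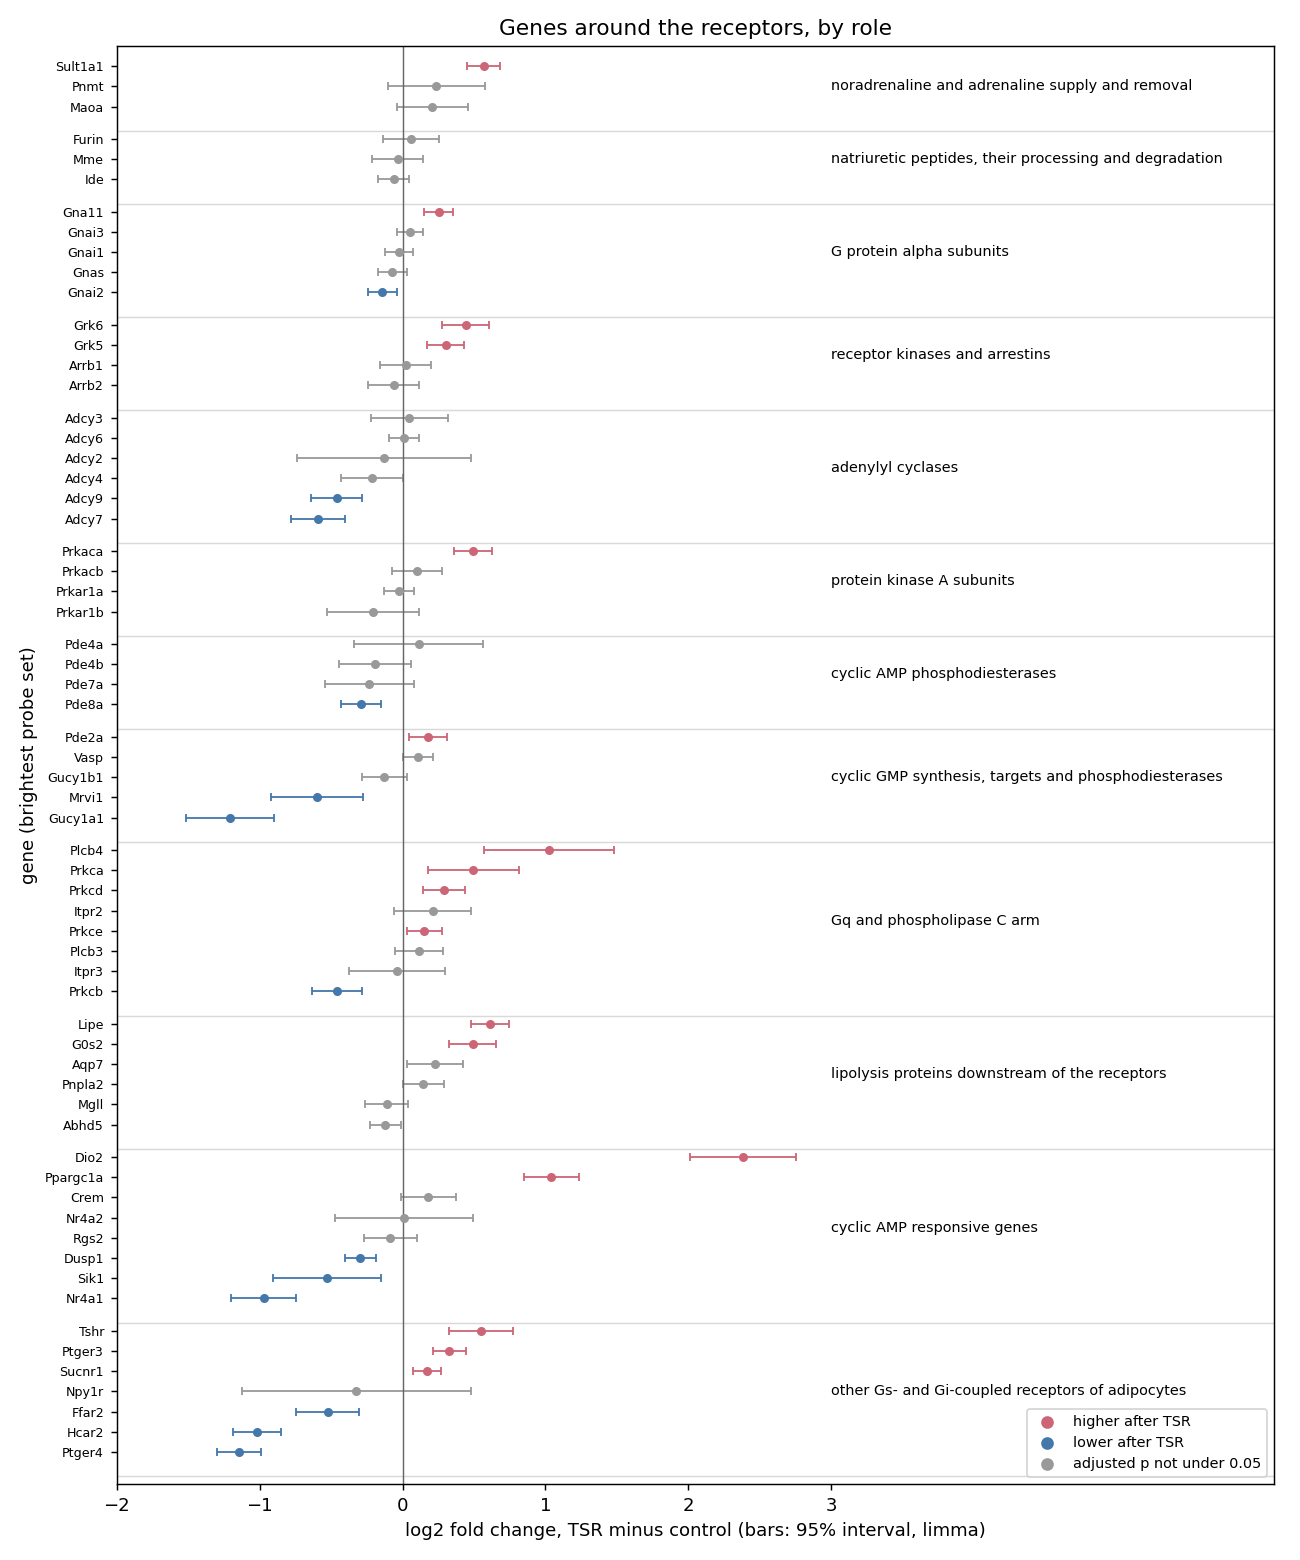
Log2 fold change (TSR minus control, with 95% intervals from limma) of the 63 tested genes around the receptors, each by its brightest probe set and grouped by role, with genes called higher in red, called lower in blue and the others in grey. Calls in both directions are seen among G proteins, the cyclic GMP arm, the Gq arm, cyclic AMP responsive genes and other receptors, and Dio2 and Plcb4 had control means under the filter.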

How the data were processed

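RNA from 3 control and 3 TSR samples of epididymal WAT was hybridised to Affymetrix mouse arrays, 1 per sample. Tissue handling differs between sources (RNAlater and a column kit in the methods, frozen tissue and Trizol in the labels). The authors computed MAS5 intensities (linear scale) in Expression Console, whose version is not given in the sources used here, and the deposited table holds these signals. Median signals lay between 127 and 141, and log2 signals correlated with r of 0.991 to 0.993 within groups and 0.962 to 0.965 across them. The number of arrays limits the precision (median SD within a group 0.10 on the log2 scale).

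Signals were taken to log2. After removal of 64 control probe sets and of those in the lowest 35% by mean log2 signal, 14707 remained and entered a two-sided limma comparison (limma 3.58.1, R 4.3.3, eBayes fitted with a trend on intensity). P-values were adjusted by Benjamini-Hochberg over all 14707, with a threshold of 0.05. Probe sets were named from GEO's platform annotation (1 symbol for 20393, several for 691, none for 1606). The members, gene lists and marker lists were chosen with earlier results of these data known. Named genes were every receptor probe set, up to 3 called genes per list with the largest change, the 3 nearest profiles per receptor and the brightest marker of a list. Dusp1, Sik1, Prkcd, Prkce, Ptger3, Sucnr1, Ffar2, Alb, Elovl3, Ucp1 and the uncalled list genes were named after their values were seen. Fits were tested on simulated data. Alternatives were other tests, scalings, filters, a floor, the replicate number as a block and leaving out each array.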

Additional observations from a re-analysis of the deposited data

How the results depend on the processing

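All 3 Npr3 probe sets kept their direction and passed in each of 15 alternatives, with log2 fold changes of 0.24 to 0.44, 0.86 to 0.99 and 0.93 to 1.06, and Npr2 kept its direction in 15 and passed in 14 (0.11 to 0.23). Median centring gave 2452 higher and 4363 lower probe sets over the whole table, against 3768 and 3082, and 20 lower listed genes against 13, with 12 higher against 17. The mean of all its probe sets turned Gnai2 to 0.14 (adjusted p = 0.016 from limma). Raising signals to the 25th percentile moved the Adra1b difference to 0.21. Leaving out single arrays gave 3075 to 3551 higher and 2525 to 2840 lower probe sets, and 14 to 18 higher and 11 to 13 lower listed genes, and called the same number of receptor probe sets (4) each time. Calls of Gnai2 were lost without control replicate 2 or 3 or TSR replicate 1 or 3 (adjusted p of 0.065 to 0.091), of Pde2a without control replicate 1 or 3 or TSR replicate 2 or 3 (0.077 to 0.12), of Prkca without control replicate 1 and TSR replicate 1 (0.053 and 0.072), of Prkce without any control replicate or TSR replicate 2 or 3 (0.072 to 0.15), and of Sik1 without control replicate 2 or 3 or any TSR replicate (0.054 to 0.097), all from limma. Median centring lost the calls of Pde2a (log2 fold change 0.07, adjusted p = 0.43), Prkca (0.39, 0.052), Prkcd (0.18, 0.058), Prkce (0.05, 0.58) and Sucnr1 (0.07, 0.32), and quantile normalization those of Gnai2 (-0.10, 0.097), Pde2a (0.13, 0.11), Prkca (0.39, 0.053) and Prkce (0.10, 0.18), all from limma. Averaging over probe sets lost Adcy9 (0.072) and Tshr (0.75). The cause was not tested.

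Whether the replicate numbers in the sample titles pair the samples is not known. Deviations of same-numbered samples correlated with 0.02, 0.19 and 0.17 over probe sets, and those of differently numbered samples with -0.22 to 0.06. Control replicate 1 correlated best with TSR replicate 3 (0.06), and control replicates 2 and 3 with the TSR sample of their own number. These values do not settle the pairing. With the replicate number as a block, 4043 probe sets were higher and 3391 lower, and 4 receptor probe sets were higher, with Npr2 at adjusted p = 0.00911 from limma. Prkce was lost under it (0.053). MAS5 signals near the 25th percentile of an array have no reliable order, which limits Npr1 and Adra1b.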
